A study of Arabidopsis thaliana with 36 samples.

Results

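The genes described here are 10 members of the mitogen-activated protein kinase (MAP kinase) cascades of Arabidopsis that act in immunity, taken by gene identifier from the 33557 genes of the deposited tables. They are the MAP kinases MPK3 (AT3G45640), MPK6 (AT2G43790), MPK4 (AT4G01370) and MPK11 (AT1G01560), the MAP kinase kinases MKK1 (AT4G26070), MKK2 (AT4G29810), MKK4 (AT1G51660), MKK5 (AT3G21220) and MKK9 (AT1G73500), and the MAP kinase kinase kinase MEKK1 (AT4G08500). All 10 had a mean above the filter on low values on each day, a mean of at least 1 FPKM (fragments per kilobase of transcript scaled to the number of mapped fragments) over the 4 groups of that day.

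A MAP kinase cascade is a relay of 3 kinases. A MAP kinase kinase kinase phosphorylates a MAP kinase kinase, which phosphorylates a MAP kinase, which in turn acts on transcription factors, enzymes and other proteins. In Arabidopsis leaves, receptors that sense bacterial flagellin and other microbial molecules switch on MPK3 and MPK6 through MKK4 and MKK5, and MPK4 through MEKK1, MKK1 and MKK2. MPK11 is the closest relative of MPK4, and MKK9 can activate MPK3 and MPK6, also in ethylene signalling and leaf senescence. The kinases are regulated mainly by phosphorylation, which transcript levels do not measure.

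The study asked how hybrids of the accessions Col-0 and Sei-0 differ from their parents in defence against the bacterium Pseudomonas syringae pv. tomato DC3000 (Pst DC3000). Col-0 is the reference accession of Arabidopsis, Fsc is the hybrid with Sei-0 as the mother, and Fcs is the hybrid with Col-0 as the mother. Leaves of 4-week-old plants of all 4 lines, grown with 8 h of light a day, were infiltrated with Pst DC3000 and collected 1, 2 and 3 days post infiltration (dpi), with 3 libraries in each of 12 groups and at least 30 leaves pooled in each library. Every group was infiltrated, so no value here compares infected with uninfected leaves. The tables give 1 pooled FPKM value for each group and day, so the values below carry no error and no difference was tested. The study gives correlations between the libraries of each group, which are not used here. Whether a difference exceeds the spread between the 3 libraries of a group cannot be told from pooled values. A gene was counted as different between groups when the ratio of FPKM + 1 was at least 1.5-fold, and all folds and log2 ratios are on that scale. A plain order of the groups, with a difference of any size, was counted as well. Counts were repeated with the 4 groups of a day scaled to the same median, by 6 genes often used as standards, among them ACT2 and UBQ10, and by 5 of these without UBQ10. Each day was normalised separately, so that levels were compared within a day only.

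The sums of FPKM lay between 935587 and 1192353 per group, and the 20 most abundant genes held 15.5% to 27.2% of a sum. FPKM carries no read depth. The study states the mapped amount for each library, but the pooled values cannot be split by library, so no counting error is given. Of 9 markers of other organs and cells, the root gene PIN2 is listed at 0 in every group, the floral genes AG and SEP3 and the seed gene AT2S3 did not pass 0.431 FPKM, and the trichome gene GL2 did not pass 0.828 FPKM. The stomatal genes FAMA and MYB60 lay between 2.81 and 14.0 FPKM, and the phloem genes SUC2 and APL between 12.9 and 119 FPKM. The photosynthesis gene RCA was present at 1093 to 4242 FPKM. The other leaf markers, RBCS1A, LHCB1.1 and CA1, lay at 4916 to 17570, 102 to 5475 and 70.1 to 907 FPKM. Leaves are mixed tissue, in which fewer cells of a type and less RNA per cell cannot be told apart. Reads of Sei-0 and of the hybrids were aligned to the Col-0 genome, and the part of this in their levels was not tested.

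The 4 MAP kinases share the threonine, glutamate and tyrosine of the activation loop, which the MAP kinase kinases phosphorylate. The coding bases around these residues are shown because they encode the site at which the cascade acts. They were read from RefSeq (TAIR10.1) in the direction of transcription, and the capitals mark the 3 codons.
MPK3 (chr3:16757760-16757798): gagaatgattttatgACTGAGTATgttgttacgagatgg
MPK6 (chr2:18139883-18139921): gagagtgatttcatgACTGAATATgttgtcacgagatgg
MPK4 (chr4:568192-568230): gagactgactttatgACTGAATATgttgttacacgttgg
MPK11 (chr1:203411-203449): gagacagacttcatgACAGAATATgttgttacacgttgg
The codons are residues 196 to 198 of MPK3, 221 to 223 of MPK6, 201 to 203 of MPK4 and 198 to 200 of MPK11. Aligned coding bases were 85.3% identical between MPK4 and MPK11, 82.0% between MKK4 and MKK5, 70.1% between MPK3 and MPK6 and 68.6% between MKK1 and MKK2. No run of 50 bases was shared by the transcripts of any of these pairs, and the longest shared run was 40 bases, in MKK4 and MKK5. A read that lies within that run could come from either gene.

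The relay to MPK4 starts with MEKK1, on the minus strand of chromosome 4 (chr4:5403753-5407301, TAIR10). At 1 dpi MEKK1 had 34.7 FPKM in Fcs, 28.8 in Fsc, 24.5 in Sei-0 and 16.5 in Col-0. Both hybrids lay above both parents, with Fcs 2.04-fold above Col-0 and 1.40-fold above Sei-0. At 2 dpi the values were 29.1 FPKM in Fcs, 25.7 in Sei-0, 24.3 in Fsc and 22.3 in Col-0. At 3 dpi they were 23.2 FPKM in Sei-0, 20.8 in Col-0, 20.6 in Fcs and 18.9 in Fsc, with both hybrids below both parents by margins of up to 1.22-fold. Under scaling to the same median, or by 6 reference genes, MEKK1 was no longer below both parents at 3 dpi in both hybrids. MEKK1 had the lowest FPKM of all members in every line at 1 dpi. On the same chromosome lie MEKK2 (AT4G08480, chr4:5387652-5391507) and MEKK3 (AT4G08470, chr4:5383852-5387058), kinases of the same family. At 1 dpi MEKK2 had 12.03 FPKM in Sei-0 and 15.7 in Col-0, while MEKK3 had 41.2 FPKM in Sei-0 and 64.1 in Col-0. Sei-0 was thus the lower parent for both neighbours and the higher parent for MEKK1.

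MKK1 and MKK2 take the signal from MEKK1 to MPK4. MKK2 (chr4:14593039-14595292) was at 1 dpi one of the most different members, with 210 FPKM in Fcs, 203 in Fsc, 184 in Sei-0 and 103 in Col-0. Col-0 stood apart from the other lines, Sei-0 was 1.78-fold and Fcs 2.03-fold above it, and the hybrids exceeded Sei-0 by 1.102-fold and 1.14-fold. At 2 dpi MKK2 had 146 FPKM in Sei-0, 139 in Col-0, 127 in Fcs and 118 in Fsc. MKK2 at 3 dpi had 97.2 FPKM in Sei-0, 95.9 in Col-0, 73.3 in Fsc and 72.2 in Fcs. On these days the ratio of Sei-0 to Col-0 was 1.05-fold and 1.01-fold and both hybrids lay below both parents, at 3 dpi at 0.745-fold to 0.767-fold of a parent. MKK1 (chr4:13217649-13219933) varied less. It had 81.9 FPKM in Sei-0, 73.7 in Fcs, 69.2 in Fsc and 61.2 in Col-0 at 1 dpi, with both hybrids between the parents. At 2 dpi MKK1 had 62.9 FPKM in Sei-0, 52.9 in Fcs, 50.2 in Col-0 and 47.0 in Fsc, and at 3 dpi all 4 lines lay between 42.4 and 47.0 FPKM. MKK2 was more abundant than MKK1 in every group, with a ratio of FPKM from 1.68 to 2.94.

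MKK4 and MKK5 act upstream of MPK3 and MPK6, and each is a single coding exon in RefSeq. At 1 dpi MKK4 (chr1:19154323-19155947) had 78.0 FPKM in Fcs, 67.5 in Fsc, 45.7 in Sei-0 and 43.2 in Col-0. The ratio of Sei-0 to Col-0 was 1.06-fold and both hybrids stood above them, Fcs 1.69-fold and Fsc 1.47-fold above Sei-0. Of all members, MKK4 at 1 dpi thus came nearest to the 1.5-fold call above both parents, which Fsc missed. At 2 dpi the hybrids lay between the parents, with 39.2 FPKM in Col-0, 35.0 in Fcs, 30.8 in Fsc and 29.6 in Sei-0. At 3 dpi MKK4 had 17.3 FPKM in Fcs, 17.8 in Fsc, 23.97 in Sei-0 and 25.5 in Col-0, so that both hybrids were below both parents, at 0.690-fold to 0.753-fold of a parent. MKK5 (chr3:7445757-7447351) also had both hybrids above both parents at 1 dpi and below both at 3 dpi. MKK5 had 61.4 FPKM in Fcs, 54.6 in Fsc, 45.8 in Col-0 and 39.9 in Sei-0 at 1 dpi. At 2 dpi it had 48.6 FPKM in Col-0, 40.3 in Fcs, 33.5 in Sei-0 and 33.4 in Fsc, and at 3 dpi 21.5 FPKM in Fsc, 22.8 in Fcs, 30.1 in Sei-0 and 35.8 in Col-0. At 3 dpi Fsc was at 0.611-fold of Col-0 and 0.723-fold of Sei-0. The ratio of MKK4 to MKK5 ranged from 0.714 to 1.27, above 1 in Fsc, Fcs and Sei-0 at 1 dpi.

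MKK9 (chr1:27639091-27640529) differed most between the parents. At 1 dpi it had 76.8 FPKM in Sei-0, 76.0 in Fcs, 58.3 in Fsc and 36.6 in Col-0. At 2 dpi the values were 126 FPKM in Sei-0, 106 in Fcs, 72.7 in Fsc and 55.4 in Col-0. At 3 dpi they were 133 FPKM in Sei-0, 98.9 in Fcs, 85.6 in Col-0 and 67.3 in Fsc. Sei-0 was above Col-0 by 2.07-fold, 2.26-fold and 1.55-fold at 1, 2 and 3 dpi, and MKK9 was the only member at least 1.5-fold higher in Sei-0 on every day, except that its 3 dpi ratio was under 1.5-fold when groups were scaled by 5 reference genes. Fcs was nearer to Sei-0 than Fsc was on every day, and at 3 dpi Fsc lay below Col-0. MKK9 and MKK1 were the members for which Fsc and Fcs did not lie together outside the range of the parents on any day, except that scaling by 5 reference genes put MKK1 below both parents in both hybrids at 3 dpi.

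MPK3 (chr3:16756770-16758698) was the most abundant of the 4 MAP kinases in every group. At 1 dpi MPK3 had 227 FPKM in Fcs, 192 in Sei-0, 171 in Fsc and 136 in Col-0. At 2 dpi it had 144 FPKM in Sei-0, 128 in Fcs, 110 in Col-0 and 96.7 in Fsc. At 3 dpi it had 87.9 FPKM in Fsc, 104 in Fcs, 115 in Sei-0 and 119 in Col-0. The hybrids fell on either side of Sei-0 at 1 dpi and lay below both parents at 3 dpi. Its partner MPK6 (chr2:18138307-18142369) acts on many of the same substrates. At 1 dpi MPK6 had 92.2 FPKM in Fcs, 85.4 in Sei-0, 72.7 in Fsc and 50.9 in Col-0, a ratio of Sei-0 to Col-0 of 1.66-fold. At 2 dpi it had 64.9 FPKM in Sei-0, 56.9 in Col-0, 55.7 in Fcs and 50.2 in Fsc, and at 3 dpi 55.1 FPKM in Sei-0, 53.0 in Col-0, 44.5 in Fcs and 38.2 in Fsc. Both hybrids were below both parents at 2 dpi and at 3 dpi, the former by 1.02-fold at the least and no longer under 2 of the 3 other scalings. The ratio of MPK3 to MPK6 stayed within 1.93 to 2.67. In the tables the locus of MPK6 takes in AT2G43795, a gene on the other strand whose end overlaps that of MPK6, and AT2G43795 was at most at 0.0760 FPKM. No other member overlapped a gene there. By RefSeq, MPK3, MPK4, MKK1, MKK4 and MKK5 overlapped other genes as well, and the part of this in their levels was not tested.

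MPK4 (chr4:567095-569088) is needed to hold back immune responses in plants that are not under attack. From the lowest to the highest line its level differed by 1.37-fold, 1.40-fold and 1.24-fold at 1, 2 and 3 dpi, less than that of any other of the 4 MAP kinases at 1 and 3 dpi. At 1 dpi MPK4 had 108 FPKM in Fcs, 96.9 in Fsc, 86.6 in Sei-0 and 78.6 in Col-0, with both hybrids above both parents by 1.12-fold or more. At 2 dpi it had 85.5 FPKM in Col-0, 71.1 in Fcs, 68.9 in Fsc and 60.6 in Sei-0, and at 3 dpi 66.4 FPKM in Col-0, 55.0 in Fsc, 54.1 in Fcs and 53.2 in Sei-0. The hybrids were between the parents on both of these days, nearer to Sei-0, except that scaling by the 6 reference genes put them below both parents at 3 dpi.

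MPK11 (chr1:202136-204335) was the member with the widest range. At 1 dpi MPK11 had 57.9 FPKM in Fcs, 40.5 in Fsc, 38.6 in Sei-0 and 18.6 in Col-0. Fcs was 3.01-fold above Col-0 and 1.49-fold above Sei-0, while Fsc exceeded Sei-0 by 1.05-fold only. At 2 dpi MPK11 had 34.1 FPKM in Fcs, 27.5 in Sei-0, 22.5 in Fsc and 20.3 in Col-0. The hybrids then fell on either side of Sei-0. At 3 dpi MPK11 had 18.2 FPKM in Sei-0, 16.7 in Col-0, 9.32 in Fcs and 7.90 in Fsc. Both hybrids were below both parents, at 0.464-fold to 0.583-fold of a parent, and this was the only call of at least 1.5-fold outside the parents that Fsc and Fcs shared, over all members and days. The ratio of MPK4 to MPK11 accordingly ranged from 1.87 to 6.96.

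**Figure D1:**
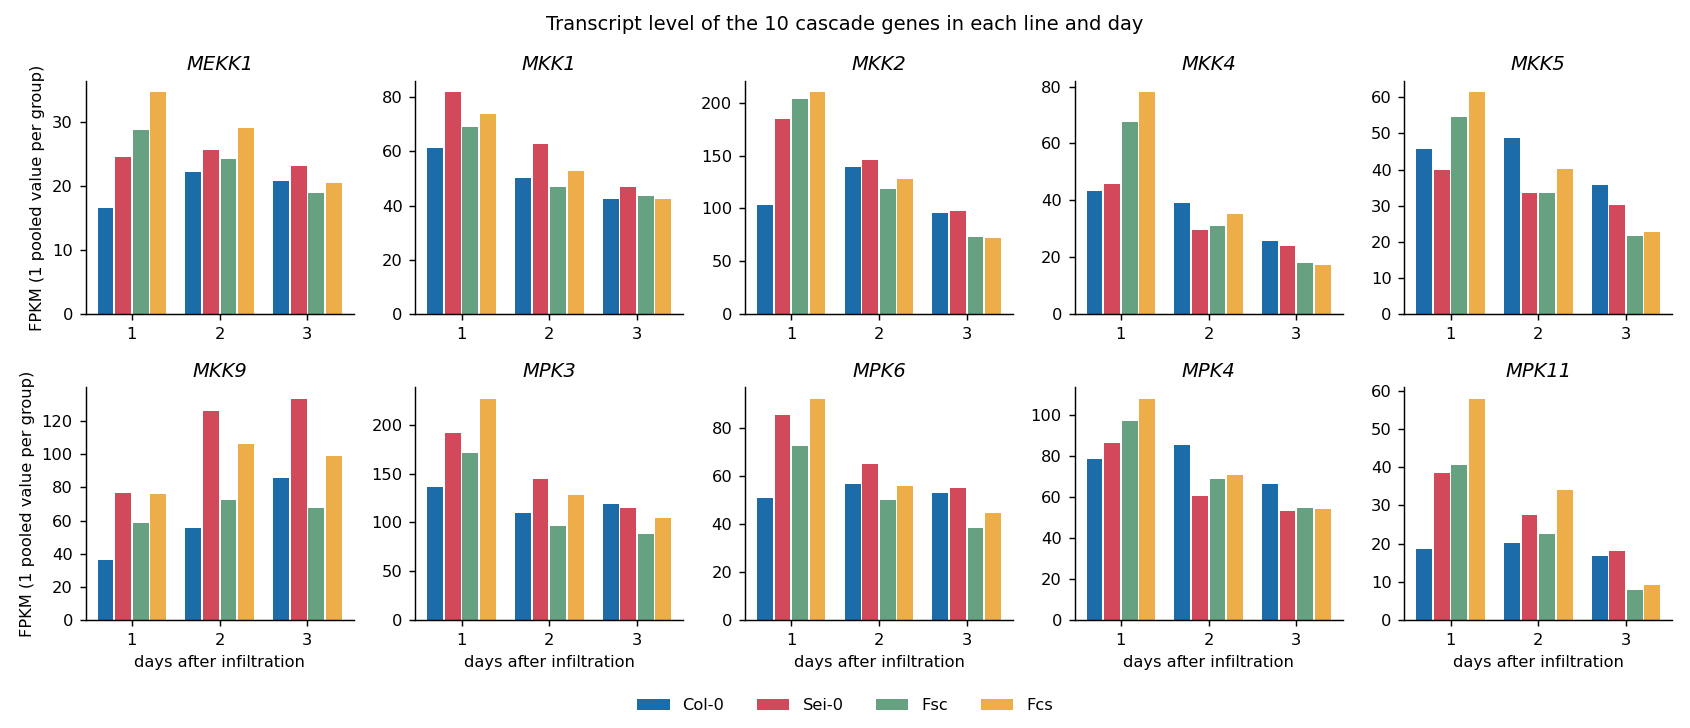
Level in FPKM (vertical axis, from 0, own scale for each gene) of each cascade gene on each of the 3 days (dpi), with a bar for each line and no error bar because each bar is 1 pooled value. MPK11 spans 7.90 to 57.9 FPKM, and the Sei-0 bar of MKK9 stands above the Col-0 bar on each day.

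Ranked by the mean of the 4 lines among the genes past the filter on a day, the members stood between percentiles 66.1 and 95.1 at 1 dpi, between 63.7 and 92.5 at 2 dpi and between 45.2 and 90.9 at 3 dpi. MPK3 ranked highest and MEKK1 lowest at 1 dpi, and MPK11 lowest at 3 dpi.

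Compared with both parents, no member was at least 1.5-fold above both in both hybrids on any day, against 3.98%, 1.83% and 4.32% of all genes tested at 1, 2 and 3 dpi. Below both parents by that margin were 0, 0 and 1 of the 10 members, against 5.76%, 2.31% and 6.17% of genes, and the 1 was MPK11. The hybrids share their parents as controls, so the calls of Fsc and Fcs are not independent. By order alone, 6 members exceeded each parent in both hybrids at 1 dpi, MEKK1, MKK2, MKK4, MKK5, MPK4 and MPK11, and none at 2 or 3 dpi, against 24.8%, 18.7% and 30.5% of genes. Scaled by the 6 reference genes, 4 of them stood above both parents at 1 dpi, without MKK2 and MPK11. Below both parents by order alone were 0 members at 1 dpi, 2 members at 2 dpi (MPK6 and MKK2) and 7 members at 3 dpi (MPK3, MPK6, MPK11, MKK2, MKK4, MKK5 and MEKK1), against 25.9%, 20.8% and 31.8% of genes. The count at 3 dpi was 6 to 8 under the other scalings. For 5 members, MPK11, MKK2, MKK4, MKK5 and MEKK1, both hybrids were above both parents at 1 dpi and below both at 3 dpi, an order that 8.96% of genes had. Under the other scalings it was 3 to 5 members, and MKK4 and MKK5 were among them under each.

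The ratio to the mid-parent value, the mean of the parents, gives the same picture in size. At 1 dpi the 10 members had a median log2 ratio of 0.29 in Fsc and 0.49 in Fcs, where the median over all genes was -0.03 and -0.01. At 2 dpi it was -0.26 in Fsc and -0.01 in Fcs, against -0.03 and -0.02 for all genes, and the sign of the value in Fcs turned under scaling by 5 reference genes. At 3 dpi it was -0.43 in Fsc and -0.22 in Fcs, against -0.02 in either hybrid for all genes. Members thus lay above the mid-parent value at 1 dpi and below it at 3 dpi in the median, in both hybrids and under all 3 other scalings. At 1 dpi 9 members in Fsc and 10 in Fcs were above the mid-parent value, and at 3 dpi 0 were in either hybrid, with signs that turned for MPK3, MPK6 and MKK9 in Fsc at 1 dpi when scaled by the 6 reference genes and for MKK1 under other scalings. MPK11 had ratios of 0.99, 0.50 and -0.84 in Fcs on the 3 days in turn and of 0.49, -0.08 and -1.05 in Fsc. MKK4 stood at 1 dpi with 0.59 in Fsc and 0.80 in Fcs, at 3 dpi with -0.45 and -0.49. By the mean of the hybrids, MKK1 was closest to the mid-parent value at 1 and 3 dpi. It stood at 1 dpi at -0.05 in Fsc and 0.04 in Fcs, at 3 dpi at -0.03 and -0.07. At 2 dpi MKK1 had -0.26 in Fsc and -0.09 in Fcs, and MPK4, with -0.08 and -0.04, was closer.

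**Figure D2:**
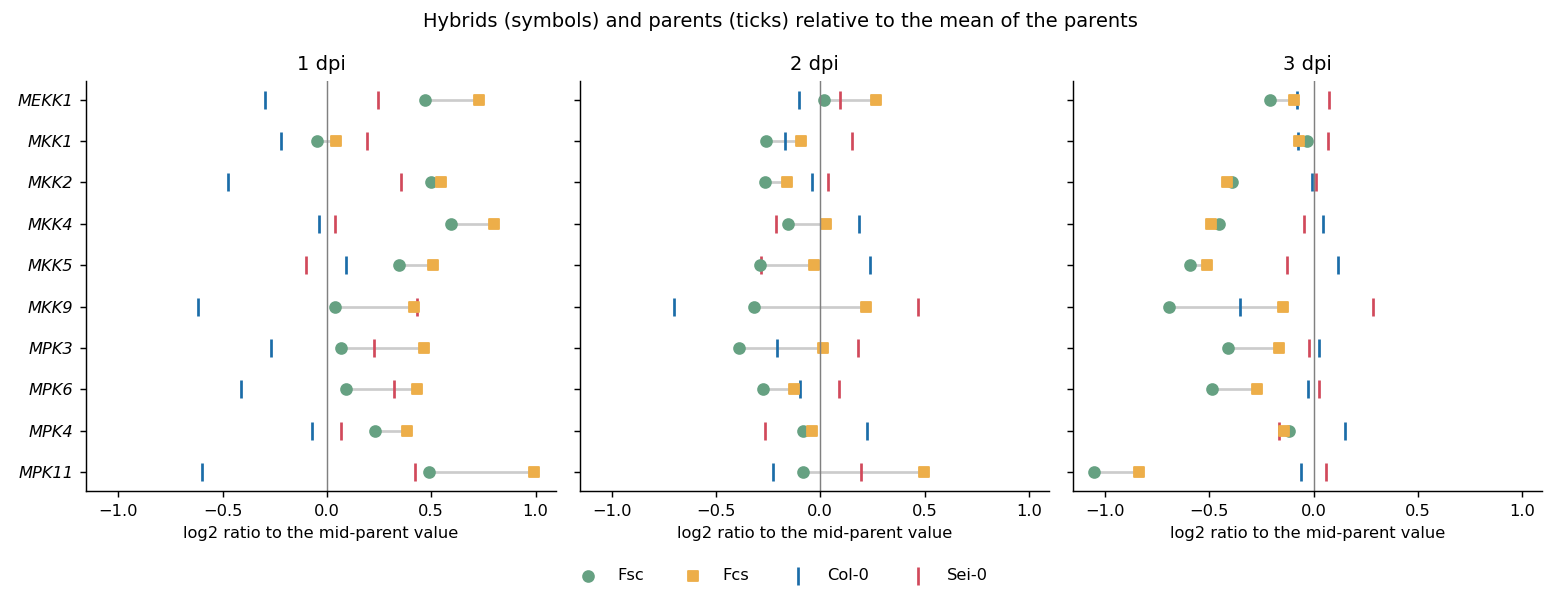
Log2 ratio of each hybrid to the mean of its parents (horizontal axis, FPKM + 1) for each cascade gene, with circles for Fsc, squares for Fcs and ticks for the parents on the same scale. At 1 dpi the symbols of MKK4 lie to the right of both ticks, at 0.59 and 0.80, and at 3 dpi those of MPK11 lie to the left, at -1.05 and -0.84.

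**Figure D3:**
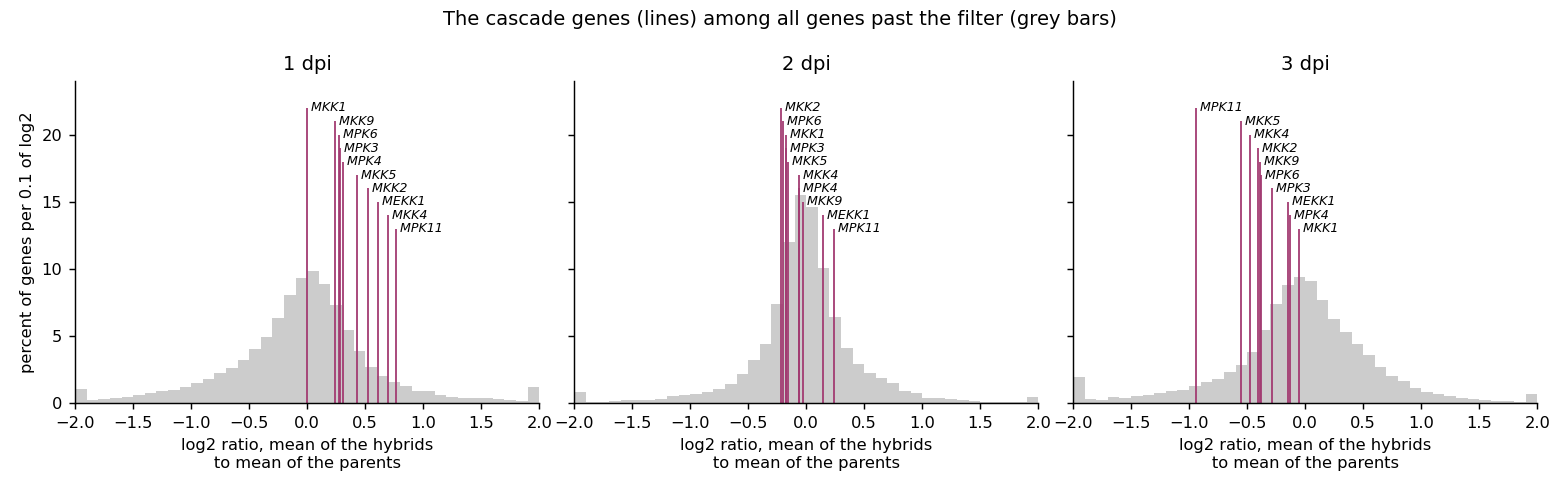
Share of all genes past the filter (grey bars, percent per 0.1 of log2, with values beyond the axis in the end bars) by log2 ratio of the mean of the hybrids to the mean of the parents, with a line for each cascade gene whose height has no meaning. MPK11 is above 92.1% of genes at 1 dpi and above 7.88% at 3 dpi.

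Between the parents, Sei-0 was at least 1.5-fold above Col-0 for 4 members at 1 dpi, MPK6, MPK11, MKK2 and MKK9, against 14.9% of genes tested. At 2 and 3 dpi this held for MKK9 alone, against 11.8% and 10.8% of genes. No member was at least 1.5-fold lower in Sei-0 on any day, against 17.9%, 14.6% and 13% of genes at 1, 2 and 3 dpi. By order alone, Sei-0 was higher for 9, 7 and 6 members at 1, 2 and 3 dpi, against 49.8%, 50.8% and 51.8% of genes, and MKK5 was lower in Sei-0 on each day. The median log2 ratio of Sei-0 to Col-0 over the members was 0.52 at 1 dpi, 0.19 at 2 dpi and 0.04 at 3 dpi, where that over all genes was -0.0003, 0.01 and 0.02. At 3 dpi the sign depended on the scaling. Sei-0 was higher for 6 members with a median of 0.06 when scaled to the same median, for 8 with 0.24 by the 6 reference genes and for 4 with -0.02 by 5 reference genes, where the median over all genes was 0.04, 0.21 and -0.04. At 1 and 2 dpi the median stayed above 0 under each scaling. When scaled by 5 reference genes, the members at least 1.5-fold higher in Sei-0 at 1 dpi were MPK11 and MKK9 alone.

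Between the reciprocal hybrids, which carry the same nuclear alleles with opposite mothers, no member differed by 1.5-fold on any day. Higher in Fsc than in Fcs by that margin were 4.64%, 2.81% and 2.95% of genes at 1, 2 and 3 dpi, and lower in Fsc were 5.3%, 6.15% and 5.72%. By order alone, Fcs was above Fsc for 10, 10 and 6 of the members at 1, 2 and 3 dpi, against 52.3%, 50% and 50% of genes, and for 8 to 10, 9 to 10 and 6 to 8 members under the other scalings. The median log2 ratio of Fcs to Fsc was 0.23, 0.22 and 0.10 at 1, 2 and 3 dpi, where that over all genes was 0.02, 0.0003 and 0.0. MPK11 and MKK9 differed most, with Fcs above Fsc by 1.4965-fold for MPK11 at 2 dpi, just under the call, and by 1.45-fold and 1.46-fold for MKK9 at 2 and 3 dpi.

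Clock genes and photosynthesis genes also differed between hybrids and parents in these leaves. TOC1, an evening gene of the circadian clock, had 46.8 FPKM in Fsc, 27.5 in Fcs, 11.7 in Sei-0 and 6.41 in Col-0 at 1 dpi, and CCA1, a morning gene, had 6.73 FPKM in Fsc, 15.6 in Fcs, 54.3 in Sei-0 and 115 in Col-0. Of the 5 clock genes, LUX, TOC1 and GI were called above both parents and CCA1 and LHY below at 1 dpi, and LUX, TOC1, CCA1 and LHY were called in the same directions at 2 and 3 dpi. Of the 4 leaf markers, RCA, LHCB1.1 and CA1 were called below both parents at 1 dpi, LHCB1.1 at 2 dpi and none at 3 dpi. CA1 and RBCS1A turned by order alone, without a call. For CA1 the lower hybrid exceeded the higher parent by 1.48-fold at 2 dpi and 1.40-fold at 3 dpi. For RBCS1A these margins were 1.05-fold and 1.38-fold. RCA stayed lower in each hybrid than in either parent on these days. LHCB1.1 at 3 dpi lay under both parents in Fsc and between them in Fcs. RCA had 1093 FPKM in Fcs, 1223 in Fsc, 2595 in Sei-0 and 4242 in Col-0 at 1 dpi. The part of the clock and of the photosynthesis genes in the levels of the cascade genes was not tested.

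The members also varied with one another over the 12 groups. Of the 45 pairs of members, 11 had a Pearson correlation above 0.8 of log2 levels with the mean of each day removed, 4 had one below 0, and the median was 0.69. The highest were MPK3 with MPK6 at 0.92, MPK6 with MKK2 at 0.91 and MKK4 with MKK5 at 0.90, and the lowest was MPK4 with MKK1 at -0.18. The 12 points of each pair come from the same libraries, so these values only describe how the levels lay together. No such count was made for pairs of all genes. Whether the members lay closer together than other genes do thus cannot be told. Among 12923 genes with a mean of at least 5 FPKM on every day, the patterns most like MPK11 were those of ACX3 (r = 0.99), AT4G39670 (r = 0.99) and PHT3;2 (r = 0.98). ACX3 encodes an acyl-CoA oxidase of peroxisomes and PHT3;2 a phosphate carrier of mitochondria. At 1 dpi PHT3;2 had 51.4 FPKM in Fcs, 23.98 in Sei-0, 23.2 in Fsc and 4.46 in Col-0, and at 3 dpi it had 16.7 FPKM in Sei-0, 12.4 in Col-0, 4.62 in Fcs and 1.98 in Fsc. Most like MKK9 were PUP14 (r = 0.99), AT5G57580 (r = 0.99) and PTP1 (r = 0.98), a tyrosine phosphatase that acts on MPK3 and MPK6. Most like MEKK1 were AT1G29290, AT4G31980 and NRB4, a subunit of the Mediator complex, with r = 0.99 each.

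Genes of the same pathway outside these 10 were described from 6 lists with 66 genes in all, of which 54, 51 and 52 passed the filter at 1, 2 and 3 dpi. Called above both parents in both hybrids were 4, 2 and 0 of them at 1, 2 and 3 dpi, against 3.98%, 1.83% and 4.32% of all genes. Called below were 3, 2 and 7, against 5.76%, 2.31% and 6.17% of all genes. Among the 16 other MAP kinases, MPK7 was called above at 1 dpi, with 30.6 FPKM in Fsc, 30.3 in Fcs, 12.4 in Col-0 and 5.98 in Sei-0. MPK19 was called below at 1 and 3 dpi. At 3 dpi MPK19 had 11.4 FPKM in Fsc, 14.7 in Fcs, 25.5 in Sei-0 and 29.2 in Col-0. Of the 5 other MAP kinase kinases only MKK3 passed the filter, and it was not called.

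Of the 18 other MAP kinase kinase kinases, 15, 12 and 13 passed the filter at 1, 2 and 3 dpi, and 2, 2 and 5 of these were called below both parents, against the same 5.76%, 2.31% and 6.17% of all genes. MAPKKK17 and MAPKKK21 were called below at 1 and 2 dpi, and MAPKKK14, MAPKKK17, MAPKKK18, MAPKKK19 and MAPKKK21 at 3 dpi. MAPKKK21 had 2.41 FPKM in Fsc, 7.48 in Fcs, 26.4 in Sei-0 and 39.8 in Col-0 at 3 dpi. MAPKKK19 had 43.4 FPKM in Fcs, 31.6 in Sei-0, 22.9 in Fsc and 7.23 in Col-0 on the first day. At 3 dpi the 4 values of MAPKKK19 were 62.0 FPKM in Sei-0, 36.7 in Col-0, 12.2 in Fcs and 2.58 in Fsc. MEKK1 was not called at 3 dpi, and its hybrids were within 1.22-fold of the parents. The rest of the 13 other kinases past the filter on that day, MEKK2 and MEKK3 among them, were not called either.

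Of the 10 phosphatases of MAP kinases, 8, 7 and 7 passed the filter at 1, 2 and 3 dpi, and none of these was called. MKP1, which removes phosphate from MPK3 and MPK6, had 51.3 FPKM in Fcs, 45.2 in Fsc, 36.8 in Sei-0 and 17.7 in Col-0 at 1 dpi and 39.9 FPKM in Sei-0, 31.3 in Fcs, 28.2 in Col-0 and 26.4 in Fsc at 3 dpi. Of the 12 substrates of the cascade and immune receptors that guard it, ACS2, an enzyme of ethylene synthesis that MPK3 and MPK6 phosphorylate, was called below at 3 dpi, with 8.61 FPKM in Sei-0, 7.84 in Col-0, 2.15 in Fcs and 0.830 in Fsc. The transcription factor WRKY33, a substrate of MPK3 and MPK6, had 228 FPKM in Fcs, 157 in Fsc, 127 in Sei-0 and 60.6 in Col-0 at 1 dpi and was not called. Among 5 early output genes, which are used as readouts of the cascade, WRKY29, FRK1 and NHL10 were called above at 1 dpi, WRKY29 and FRK1 at 2 dpi and none at 3 dpi. WRKY29 was low, with 5.21 FPKM in Fsc, 3.47 in Fcs, 1.00 in Col-0 and 0.697 in Sei-0 at 1 dpi. On that day it passed the filter only through the hybrids, so its call carries little weight. FRK1, a receptor-like kinase, had 52.3 FPKM in Fsc, 46.2 in Fcs, 20.4 in Sei-0 and 8.31 in Col-0 at 1 dpi and 39.5 FPKM in Fcs, 39.3 in Sei-0, 24.5 in Fsc and 17.8 in Col-0 at 3 dpi. Relative to the mid-parent value, the early output genes had a median log2 ratio of 1.38 in Fsc and 1.62 in Fcs at 1 dpi, where that of the cascade genes was 0.29 and 0.49. At 2 dpi it was 0.56 in Fsc and 1.37 in Fcs, against -0.26 and -0.01 for the cascade genes. At 3 dpi it was -0.21 in Fsc and 0.34 in Fcs, on opposite sides of the mid-parent value, against -0.43 and -0.22 for the cascade genes.

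**Figure D4:**
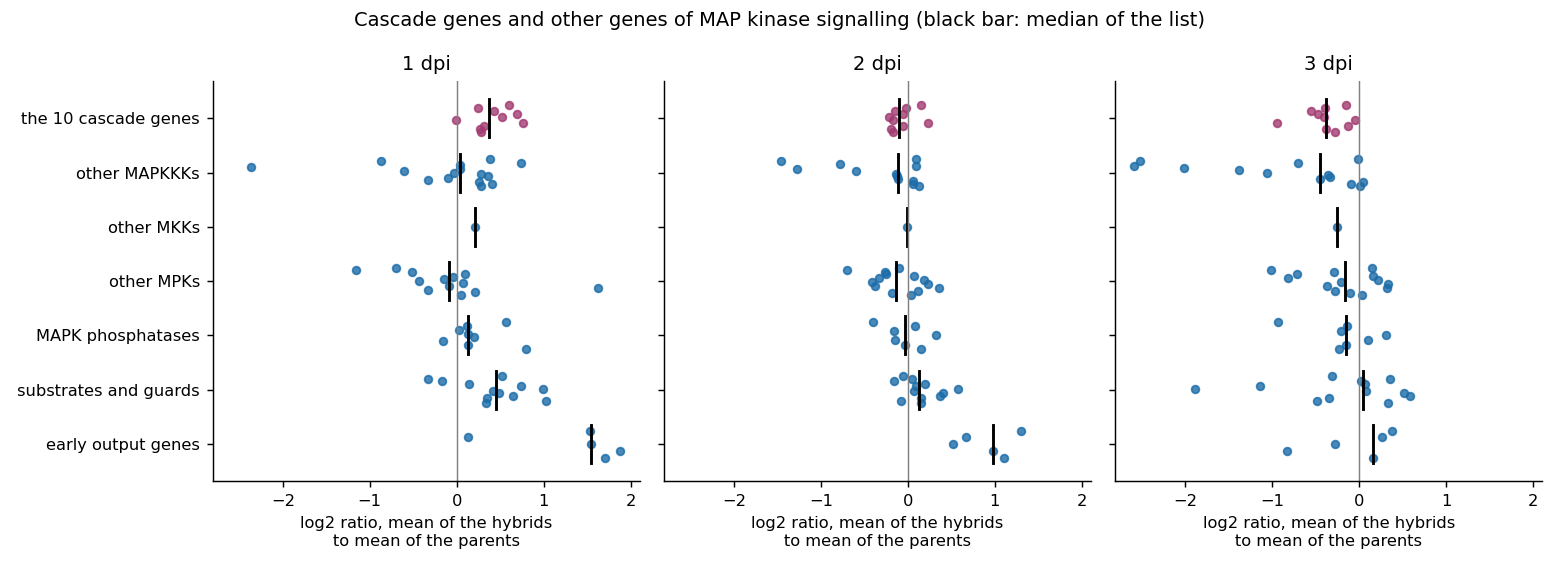
Log2 ratio of the mean of the hybrids to the mean of the parents (horizontal axis, FPKM + 1) for genes past the filter in each list, with a point for each gene and a black bar at the median. The cascade genes stay within 1 of zero on each day, while MAPKKK21 and MAPKKK19 are far to the left at 3 dpi and FRK1, NHL10 and WRKY29 to the right at 1 dpi.

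The sequence before the start of each gene was searched for TTGAC, the core of the W-box that WRKY transcription factors bind, on either strand, so that GTCAA was counted as well. In the 250 bases before the RefSeq start, 4 of the 10 members held the core at least once, MPK6, MKK2, MPK4 and MPK11, and MPK6 and MKK2 held it 3 times. Of 26682 protein-coding genes, 45.0% held at least 1 core in a window of this length and 3.38% held 3 or more. Of the 5 members whose hybrids were above both parents at 1 dpi and below both at 3 dpi, MPK11 and MKK2 held the core and MKK4, MKK5 and MEKK1 did not. The windows of MPK11, the member with the widest range, of MKK2 and of MKK4 are shown 5′ to 3′ in the direction of transcription, with the cores in capitals, because these genes shared that order of hybrids and parents.
MPK11 (chr1:201853-202102, plus strand): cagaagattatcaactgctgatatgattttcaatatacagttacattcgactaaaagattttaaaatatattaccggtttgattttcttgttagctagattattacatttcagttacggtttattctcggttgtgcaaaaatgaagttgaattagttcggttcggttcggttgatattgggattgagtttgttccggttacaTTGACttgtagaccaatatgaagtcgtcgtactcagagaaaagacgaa
MKK2 (chr4:14595385-14595634, minus strand): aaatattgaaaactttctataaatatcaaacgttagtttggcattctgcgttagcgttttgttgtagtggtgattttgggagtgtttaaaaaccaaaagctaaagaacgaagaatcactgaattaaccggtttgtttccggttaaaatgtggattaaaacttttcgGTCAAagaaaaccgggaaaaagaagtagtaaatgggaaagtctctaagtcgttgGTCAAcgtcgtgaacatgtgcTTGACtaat
MKK4 (chr1:19154073-19154322, plus strand): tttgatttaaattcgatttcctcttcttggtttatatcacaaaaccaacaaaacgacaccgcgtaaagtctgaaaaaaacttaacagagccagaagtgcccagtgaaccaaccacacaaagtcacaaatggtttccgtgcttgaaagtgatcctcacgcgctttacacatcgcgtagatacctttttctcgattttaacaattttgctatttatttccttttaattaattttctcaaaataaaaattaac
A match of 5 bases is a description of the sequence and not a binding site, and the window of MKK4 has none.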

How the data were processed

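Total RNA of infiltrated leaves was sequenced by mRNA-seq in 36 libraries, 3 for each of 12 groups. Per the labels and the methods of the study, the authors aligned the reads to TAIR10 (the labels name Bowtie, the methods TopHat) and estimated levels with Cufflinks, Cuffmerge and Cuffdiff under a Poisson model of fragments. Versions, read length and the use of strand are not given in the sources used here. The labels give 22 °C for plant growth, and the methods give another temperature. The authors deposited 1 Cuffdiff table for each day, whose FPKM values are 1 pooled value for each gene and group. The tables also hold the authors' fold changes, test statistics, p-values and q-values for 6 comparisons, which were not used. All columns of FPKM mapped to a group, with 0 left unmapped. No depth per library can be read from them. The study states it elsewhere, and those totals were not used.

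Genes with a mean of at least 1 FPKM over the 4 groups of a day were kept (17645, 17627 and 17713 at 1, 2 and 3 dpi). Ratios were taken on log2(FPKM + 1), which understates ratios of low genes, and a call was a ratio of at least 1.5-fold within a day. Groups followed the sample labels. With 1 value per group no test could be run. The members and the lists were chosen with earlier results of these data known. All 10 members are named. Of the other lists, at most 3 genes called in both hybrids per list and day are named, those farthest from the nearer parent, and for the 3 members with the widest range within a day, the 3 genes with the most similar pattern. The clock genes TOC1 and GI, MAPKKK14, MAPKKK17 at 3 dpi, MKP1, WRKY33, MEKK2, MEKK3 and MKK3 fall outside this rule and were named after their values were seen. The same holds for the leaf marker RBCS1A, for CA1 and RCA at 2 and 3 dpi and for LHCB1.1, NHL10 and WRKY29 at 3 dpi. Of the listed genes, 1 identifier was left out because the annotation gives it another name. Alternatives were folds of 2 and 1.25, pseudocounts of 0.1 and 5, no filter or a filter of 5 FPKM, scaling of the groups of a day to the same median or by 6 reference genes, and other forms of the mid-parent value. The order alone and scaling by 5 reference genes (without UBQ10) were chosen after seeing the data. The counting of calls was tested on simulated data.

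Loci are those of the tables, with starts counted from 1. Of the 32810 genes found in RefSeq (TAIR10.1), 32809 overlap their RefSeq gene and 50.2% share its start or its end. All 10 members overlap theirs, 2 share a start or an end and 0 share both, so the loci printed for members differ from the RefSeq genes at 1 end or both. Sequences and upstream windows were read from that genome by the RefSeq gene models. The software was Biopython 1.88, pandas 2.3.3 and NumPy 2.4.6 under Python 3.11.15, with Matplotlib 3.10.9 for figures.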

Additional observations from a re-analysis of the deposited data

Results flagged for a closer look

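For 5 cascade genes both hybrids lay on opposite sides of both parents at 1 and 3 dpi, above at 1 dpi and below at 3 dpi, each day having 1 pooled value per group. The log2 ratio of the mean of the hybrids to the mid-parent value was higher at 1 dpi than at 3 dpi by 1.70 for MPK11, 1.17 for MKK4, 0.98 for MKK5, 0.92 for MKK2 and 0.76 for MEKK1. This difference between days was not tested, and 8.96% of all genes had the same order. The genes were picked by that order, so a higher ratio at 1 dpi followed from the choice. All other members were also lower at 3 dpi, from 0.27 to -0.38 for MPK6 and from -0.002 to -0.05 for MKK1. Only MKK4 and MKK5 kept the order under each scaling. The 2 days were normalised in separate tables, and each ratio was taken within its own day.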

How the results depend on the processing

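No value turned its direction past 1.5-fold in any alternative. Of 222 counts of members under the alternatives, 202 stayed within 1.5 times the count given in the report. Part of these could not have changed. Every member had a day mean above 5 FPKM, so the filters could not alter a count, and a pseudocount cannot alter an order. Many other counts were 0 in both settings, so 202 of 222 overstates how far the counts were put to a test. Of 420 ratios of single members to the mid-parent value all moved by less than 1.5-fold, while 399 kept their sign. Of 72 medians, 69 kept their sign, the median in Fcs at 2 dpi turned from -0.01 to 0.11 under scaling by 5 reference genes and to 0.01 with the mean of the parents' log2 values, and that of Sei-0 over Col-0 at 3 dpi turned from 0.04 to -0.02 under scaling by 5 reference genes.

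With a fold of 2, the members higher in Sei-0 than in Col-0 were 2 at 1 dpi and 0 at 3 dpi, and none was below both parents at 3 dpi (0). With the lower alternative fold, 1 exceeded both parents at 1 dpi and 4 were lower than both at 3 dpi, 7 and 3 were higher in Sei-0 at 1 and 2 dpi, 3 lower in Sei-0 at 2 dpi, and 4, 3 and 1 lower in Fsc than in Fcs at 1, 2 and 3 dpi. Over all genes, the calls above and below both parents were 702 and 1016, 323 and 408, and 766 and 1093 at 1, 2 and 3 dpi, against 314 and 310, 82 and 142, and 177 and 441 with a fold of 2 and 1387 and 2006, 927 and 925, and 2055 and 2163 with the lower one. With a pseudocount of 0.1, 1 member was lower in Fsc than in Fcs at 2 dpi. Scaled by the 6 reference genes, 3 members were higher in Sei-0 at 2 dpi and 1 was below both parents by order at 2 dpi. Scaled by 5 reference genes, 2 members were higher in Sei-0 at 1 dpi and 0 at 3 dpi, 1 was lower in Sei-0 and 1 lower in Fsc than in Fcs at 2 dpi, and by order 1 was above and 1 below both parents at 2 dpi. The cause of these moves was not tested.

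Scaling by 5 reference genes shifted all genes by up to 0.18 on the log2 scale (Col-0, 1 dpi), and made 1576 genes higher and 5121 lower in Sei-0 than in Col-0 at 1 dpi, against 2627 and 3163 as deposited. Scaling by the 6 reference genes made 3258 higher and 1824 lower at 2 dpi and 3061 and 1653 at 3 dpi, against 2083 and 2575 and 1905 and 2305. The reference gene UBQ10 was lowest in Sei-0. No paired analysis was possible because each group has 1 pooled value, and no library could be left out for the same reason. How far depth limits single values cannot be told from pooled FPKM.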
